A study of Mus musculus with 12 samples.

Results

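RNA from dermal papilla cells was compared with RNA from hair follicle dermal stem cells of mouse back skin. Both populations were sorted by flow cytometry from male Sox2:GFP/aSMA:dsRed mice at about postnatal day 26 to 27, with hair follicles in early anagen, the start of the growth phase. That strain carries fluorescent reporters for Sox2 and for alpha smooth muscle actin. The 6 libraries were replicates 1, 2 and 4 of dermal papilla and replicates 1, 2 and 4 of dermal stem cells, out of 12 libraries in the series. The labels give neither the gates nor the antibodies of the sort, and nothing in them says that replicates came from separate mice, so p-values measure the spread between libraries, which may be technical. Genes with at least 1 FPKM (a read count corrected for transcript length and library size) in at least 3 of the 6 libraries were tested, which left 11681 of 24192 gene rows. Values below are FPKM, given per library in the order of replicates 1, 2 and 4. Fold changes are dermal papilla over dermal stem cells on the log2(FPKM + 1) scale, which understates the change of low genes, with 3 libraries per population. A gene was said to have risen or fallen where limma's test gave a Benjamini-Hochberg adjusted p under 0.05 across all 11681 genes.

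The dermal papilla is a cluster of mesenchymal cells at the base of the hair follicle that signals to the epithelium around it and sets the timing of hair growth. Hair follicle dermal stem cells sit in the dermal cup and give rise to the dermal sheath, a smooth muscle-like layer around the follicle, and to new papilla cells. Papilla cells are known for secreted Wnt, BMP and FGF signalling molecules. Sheath cells are known for actin, myosin and other contractile proteins.

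Of the 11681 genes, 160 were higher in dermal papilla (1.37%) and 503 were lower (4.31%), 663 in all (5.68%). At least a 4-fold difference was reached by 58 of the higher genes and 151 of the lower ones. The median log2 fold change over all genes tested was -0.27, and each fold below is to be read against that value. Scaling the libraries by the median of ratios moved that median by 0.23 and gave 214 higher (1.83%) and 240 lower genes (2.05%), or 454 in all (3.89%), so that 47.1% of calls were higher instead of 24.1%. With quantile normalization the split was 269 higher and 276 lower, or 49.4% higher. Fitting the replicate number as a block gave 377 higher (3.23%) and 820 lower genes (7.02%), or 1197 in all (10.2%). A fit that also held the 6 libraries of dermal sheath and interfollicular dermis gave 303 higher (2.59%) and 836 lower genes (7.16%), or 1139 in all (9.75%). Without papilla replicates 1 and 2 together, the libraries with the largest keratinocyte and melanocyte marker sums, 151 genes were higher (1.29%) and 566 lower (4.85%), or 717 in all (6.14%), an alternative chosen after the data were seen. That alternative leaves papilla replicate 4 alone against the 3 stem cell libraries, so spread within papilla is not measured. The lone library is assumed to vary like the stem cell libraries. Its counts, here and by list below, are therefore no measure of how stable the main calls are. With all 6 libraries, an unadjusted p under 0.05 was reached by 703 higher (6.02%) and 2123 lower genes (18.2%). The counts rested on each library. Without dermal papilla replicate 1 they were 73 and 230, without dermal papilla replicate 2 they were 66 and 269, and without dermal papilla replicate 4 they were 438 and 713. Without dermal stem cell replicates 1, 2 or 4, they were 19 and 95, 30 and 139, and 36 and 143. Across those 6 fits, 18 higher and 91 lower genes passed every time. Gene lists gave 58 counts above 0, a list and a direction each, and 34 of these fell to 0 without at least 1 of the 3 stem cell libraries, 15 without at least 1 papilla library and 17 with no filter on level. Each count by list is to be read beside the shares over all genes, 1.37% higher and 4.31% lower. Values did not overlap between the populations for 797 genes that were above (6.82%) and 2845 that were below (24.4%) in dermal papilla. By estimate, every papilla library was shallower than every stem cell library, and the part of depth in these counts was not tested.

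**Figure D1:**
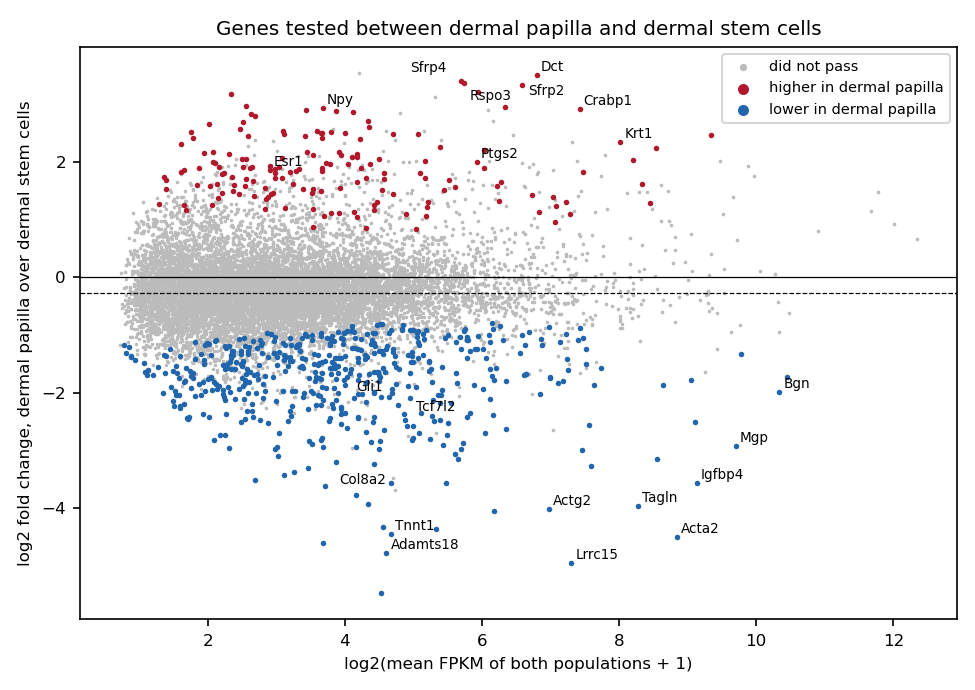
Each point is 1 of 11681 tested genes, with its mean level over both populations on the x axis (log2 FPKM + 1) and its log2 fold change, dermal papilla over dermal stem cells, on the y axis. Red points are the 160 genes that passed as higher in dermal papilla and blue points the 503 that passed as lower; the dashed line marks the median of all genes, -0.27, and the lower genes reach larger folds and higher levels.

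The first principal component of the 6 libraries carried 42.1% of the variance and separated the populations. The second carried 30.3% and set both replicate 4 libraries apart from replicates 1 and 2. Marker lists of other cells also differed between libraries. Keratinocyte markers summed to 10100.0, 10500.0 and 3065 FPKM in dermal papilla, against 2019, 3665 and 1928 FPKM in dermal stem cells. Melanocyte markers summed to 1255, 897 and 289.7 FPKM in dermal papilla, against 439.7, 493 and 281 FPKM in dermal stem cells. Most of the stem cell sums came from 1 listed gene, Ednrb, which mesenchyme also expresses. Ednrb had 72.6, 53.4 and 38.2 FPKM in dermal papilla, against 338, 364 and 256 FPKM in dermal stem cells. The keratinocyte and melanocyte sums were both largest in dermal papilla replicates 1 and 2. For immune cell markers the sums were 1823, 972 and 605 FPKM in dermal papilla, against 4893, 2576 and 146 FPKM in dermal stem cells, and those of stem cells spanned the range of papilla. Endothelial markers summed to 199, 314 and 49.8 FPKM in dermal papilla, against 301, 197 and 106 FPKM in dermal stem cells, with overlap. Of all genes of these 4 lists found in the data, tested or not, none was at 0 in all 6 libraries. In bulk samples of this kind, a change in the number of cells of a type and a change in RNA per cell cannot be told apart.

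**Figure D2:**
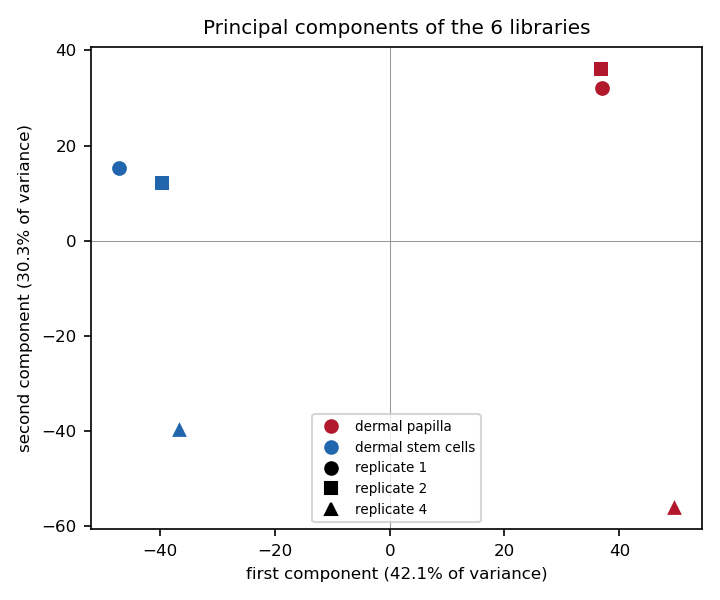
Scores of the 6 libraries on the first 2 principal components of log2(FPKM + 1) over the tested genes, in units of the component. Dermal papilla (red) lies on the right and dermal stem cells (blue) on the left of the first component, and the replicate 4 triangles lie below the other libraries on the second.

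**Figure D3:**
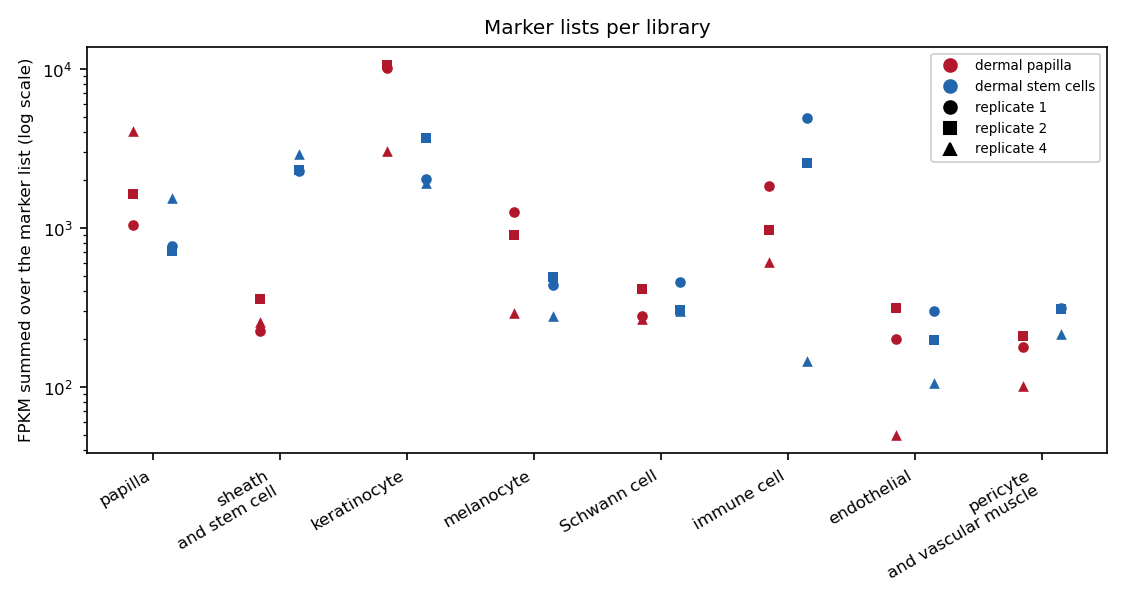
FPKM summed over each marker list, per library, on a log axis, with dermal papilla (red) left of dermal stem cells (blue). Sheath and stem cell markers sum to 224, 355 and 254 FPKM in dermal papilla, against 2268, 2315 and 2934 FPKM in dermal stem cells, while the endothelial and immune sums of the populations overlap. The lists were chosen with earlier results of these data known.

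The reporter genes were examined first, since they bear on the labels. Acta2, which encodes alpha smooth muscle actin, had 29.4, 86.4 and 20.5 FPKM in dermal papilla, against 866, 901 and 849.8 FPKM in dermal stem cells (log2 fold change -4.50 ± 0.48 (SE), adjusted p = 0.00544). All 3 papilla libraries lay far below all 3 stem cell libraries, with papilla replicate 2 the highest of its group. Sox2, a transcription factor of the papilla in part of the hair follicles, had 0.882, 2.66 and 7.17 FPKM in dermal papilla, against 1.15, 1.17 and 1.11 FPKM in dermal stem cells (log2 fold change 0.84 ± 0.51 (SE), adjusted p = 0.351). Papilla replicates 2 and 4 were above every stem cell library and papilla replicate 1 was below them, so the groups overlapped and the test was not passed. The strain reports both genes, and whether either was used to sort the cells is not given. Of 23 tested sheath and stem cell markers, 0 rose and 13 fell, Acta2 among them, or 12 of 22 without it. That list was chosen with earlier results of these data known. It also holds Lrrc15, Adamts18, Stmn2 and Tagln, which are among the largest falls here, so its count is no check of the labels. The 13 lower sheath and stem cell markers numbered 11, 10 and 13 without papilla replicate 1, 2 or 4, and 9, 9 and 10 without stem cell replicate 1, 2 or 4.

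Smooth muscle contractile genes were the group with the most members that fell. Of 32 genes, 0 rose and 22 fell, with a median log2 fold change of -1.83; after median-of-ratios scaling 0 higher and 16 lower passed, and 0 higher and 15 lower did without papilla replicates 1 and 2. Their summed level was 555, 949.9 and 717 FPKM in dermal papilla, against 4692, 5055 and 4853 FPKM in dermal stem cells. Acta2 is 1 of these genes; without it 21 of 31 fell, the median was -1.81, and the sums were 526.1, 863.4 and 696.3 FPKM in dermal papilla, against 3826.0, 4154.0 and 4004.0 FPKM in dermal stem cells. The 22 lower contractile genes numbered 15, 15 and 19 without papilla replicate 1, 2 or 4, and 13, 13 and 18 without stem cell replicate 1, 2 or 4. With the replicate block the count was 0 higher and 23 lower. Actg2, the enteric smooth muscle actin (chromosome 6, 83512909 to 83536251), had 14.9, 17.2 and 9.72 FPKM in dermal papilla, against 240.2, 228 and 239 FPKM in dermal stem cells (log2 fold change -4.02 ± 0.23 (SE), adjusted p = 0.000865). Actg2 and Acta2 encode near-identical proteins, and how reads were divided between the genes is not given. Tagln, the actin-binding protein transgelin (chromosome 9, 45929628 to 45936058), had 29.4, 60.9 and 25.4 FPKM in dermal papilla, against 547, 600.0 and 584 FPKM in dermal stem cells (log2 fold change -3.97 ± 0.33 (SE), adjusted p = 0.00372). In both genes the 3 stem cell libraries were within a narrow range and every papilla library was many times lower.

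The fall ran through the parts of the contractile machinery. Among thin filament genes, the tropomyosin gene Tpm2 had 22.6, 48.5 and 37.6 FPKM in dermal papilla, against 339, 419 and 282 FPKM in dermal stem cells (log2 fold change -3.27 ± 0.31 (SE), adjusted p = 0.00394), and Tpm1 had 119, 202 and 176 FPKM in dermal papilla, against 788, 856 and 1172 FPKM in dermal stem cells (log2 fold change -2.51, adjusted p = 0.0065). Neither tropomyosin overlapped between the populations. Among myosin genes, the regulatory light chain Myl9 had 41.4, 127 and 76.6 FPKM in dermal papilla, against 640.1, 735 and 628 FPKM in dermal stem cells (log2 fold change -3.15 ± 0.39 (SE), adjusted p = 0.00758). Mylk, the kinase that activates that light chain, had 6.08, 14.6 and 7.77 FPKM in dermal papilla, against 92.8, 107 and 66.03 FPKM in dermal stem cells (log2 fold change -3.15, adjusted p = 0.0052). The smooth muscle heavy chain Myh11 was less even, with 5.92, 18.5 and 8.63 FPKM in dermal papilla, against 73.6, 92.8 and 26.4 FPKM in dermal stem cells (log2 fold change -2.40 ± 0.54 (SE), adjusted p = 0.0482). Its stem cell replicate 4 was the lowest stem cell library, and it was still above all papilla libraries. Cnn1, the actin-binding protein calponin 1, had 1.71, 7.096 and 2.98 FPKM in dermal papilla, against 48.3, 54.5 and 14.8 FPKM in dermal stem cells (log2 fold change -2.98, adjusted p = 0.0306). Des, the filament protein desmin, had 5.85, 13.7 and 3.93 FPKM in dermal papilla, against 72.3, 69.7 and 19.3 FPKM in dermal stem cells (log2 fold change -2.57, adjusted p = 0.0499), and Lmod1, an actin nucleator, had 0.183, 1.29 and 0.519 FPKM in dermal papilla, against 7.57, 6.91 and 2.57 FPKM in dermal stem cells (log2 fold change -1.96, adjusted p = 0.0458). Stem cell replicate 4 was the lowest stem cell library in these 3 genes as well.

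Genes of actin crosslinking and focal contacts fell with smaller folds. Cnn2 had 14.8, 19.4 and 19.7 FPKM in dermal papilla, against 52.8, 51.3 and 64.4 FPKM in dermal stem cells (log2 fold change -1.60, adjusted p = 0.008). Flna, which crosslinks actin filaments, had 31.98, 31.6 and 37.5 FPKM in dermal papilla, against 103, 103 and 103 FPKM in dermal stem cells (log2 fold change -1.59, adjusted p = 0.00579). Vcl, the focal contact protein vinculin, had 34.6, 39.3 and 31.2 FPKM in dermal papilla, against 82.8, 75.96 and 94.6 FPKM in dermal stem cells (log2 fold change -1.25, adjusted p = 0.0154). In each of these the groups were separate and the spread within each group was small. Hspb2, a small heat shock protein of muscle, was listed at 0 in all papilla libraries and at 42.2, 52.02 and 37.6 FPKM in dermal stem cells. Spcs1, a signal peptidase subunit that cells in general use, was likewise listed at 0 in all papilla libraries and at 28.4, 22.1 and 20.7 FPKM in dermal stem cells, and 25 tested genes were at 0 in 1 library and above 20 FPKM in another, so these zeros are given as listed.

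Because contractile genes moved together, their promoters were searched for the CArG box, the binding motif of serum response factor, which is known to drive many muscle genes. RefSeq promoters (GRCm38.p6, 250 bases before to 50 after the transcript start) were searched for its exact form on both strands. The box was in 535 of 32851 promoters given (1.63%) and in 153 of 11569 promoters of tested genes (1.32%). The contractile list had 32 promoters, which belonged to 26 of its genes. The box was in 4 of those promoters (12.5%), 1 each of Cnn2, Myl6, Myl9 and Vcl, or 15.4% of the 26 genes. These 4 genes all fell, as did 19 of the 26. Acta2, Actg2 and Tagln, with the largest folds of the list, were not among the 4. List genes without a promoter given were not searched, and a box with a mismatch or outside the window would be missed. Absence from the 4 therefore does not show that a gene lacks the box. The box was in 15 of 519 promoters of genes that fell (2.89%) and in 2 of 152 promoters of genes that rose (1.32%). A match is a description of letters and not a binding site. The bases before the annotated gene start of Myl9, Cnn2 and Vcl are printed because they hold the box, which is in capitals. They lie on the plus strand at chr2:156775214-156775407 for Myl9, chr10:79988350-79988599 for Cnn2 and chr14:20929148-20929382 for Vcl. The box begins 105 bases before the start of Myl9, 56 before that of Cnn2 and 212 before that of Vcl.
Myl9: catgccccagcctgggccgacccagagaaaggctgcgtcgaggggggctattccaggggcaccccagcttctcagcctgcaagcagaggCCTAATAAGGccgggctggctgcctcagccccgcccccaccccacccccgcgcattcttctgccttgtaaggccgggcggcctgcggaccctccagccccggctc
Cnn2: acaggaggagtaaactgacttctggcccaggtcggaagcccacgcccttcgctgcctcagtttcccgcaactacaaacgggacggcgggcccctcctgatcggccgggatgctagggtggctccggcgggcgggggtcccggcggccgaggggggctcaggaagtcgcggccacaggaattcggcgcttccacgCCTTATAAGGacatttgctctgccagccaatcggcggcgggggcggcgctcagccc
Vcl: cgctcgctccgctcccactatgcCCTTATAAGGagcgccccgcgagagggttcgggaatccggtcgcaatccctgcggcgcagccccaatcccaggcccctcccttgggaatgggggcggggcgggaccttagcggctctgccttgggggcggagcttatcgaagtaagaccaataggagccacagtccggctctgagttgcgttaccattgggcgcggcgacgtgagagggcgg

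Muscle genes beyond the smooth muscle set were mostly not tested or did not pass. Of 28 listed striated muscle genes, 9 passed the level filter and 2 fell, against 0 higher and 3 lower with the block. Tnnt1, slow skeletal troponin T, had 0.112, 3.01 and 1.32 FPKM in dermal papilla, against 43.8, 39.9 and 58.2 FPKM in dermal stem cells (log2 fold change -4.45 ± 0.45 (SE), adjusted p = 0.00484). Casq2, the cardiac calcium store protein calsequestrin 2, had 2.28, 1.88 and 0.0872 FPKM in dermal papilla, against 38.4, 34.8 and 57.8 FPKM in dermal stem cells (log2 fold change -4.33 ± 0.44 (SE), adjusted p = 0.00494). The papilla libraries were near 0 to 3 FPKM and the stem cell libraries well above them in both genes. Of 14 muscle transcription factors and coactivators, 2 fell, namely Mef2c with 5.29, 8.36 and 9.08 FPKM in dermal papilla, against 26.7, 22.6 and 40.8 FPKM in dermal stem cells (log2 fold change -1.84, adjusted p = 0.0177) and Tead3 with 6.78, 9.63 and 8.35 FPKM in dermal papilla, against 17.2, 14.98 and 21.4 FPKM in dermal stem cells (log2 fold change -1.02, adjusted p = 0.0478). The 2 lower muscle factors numbered 0, 1 and 1 without papilla replicate 1, 2 or 4, and 0, 1 and 0 without stem cell replicate 1, 2 or 4. Muscle factors that fell numbered 1 after median-of-ratios scaling and 1 after quantile normalization. Mef2c passed under 12 of the 16 alternatives and Tead3 under 4.

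Vasoactive receptors, which set the tone of smooth muscle, differed in a few members. Of 38 listed genes, 27 were tested, of which 1 rose and 3 fell, and 3 higher and 5 lower passed with the replicate block. The 3 lower vasoactive genes numbered 2, 3 and 5 without papilla replicate 1, 2 or 4, and 1, 2 and 1 without stem cell replicate 1, 2 or 4. Vasoactive genes that fell numbered 1 with no filter and 5 in the fit of 12 libraries. The endothelin receptor Ednrb had 72.6, 53.4 and 38.2 FPKM in dermal papilla, against 338, 364 and 256 FPKM in dermal stem cells (log2 fold change -2.56 ± 0.28 (SE), adjusted p = 0.00594). Ednra, the other endothelin receptor, had 3.05, 8.03 and 11.8 FPKM in dermal papilla, against 60.9, 37.2 and 64.3 FPKM in dermal stem cells (log2 fold change -2.79 ± 0.44 (SE), adjusted p = 0.0166). F2r, a thrombin receptor, had 8.37, 13.9 and 19.3 FPKM in dermal papilla, against 47.1, 48.8 and 107 FPKM in dermal stem cells (log2 fold change -2.17 ± 0.40 (SE), adjusted p = 0.0274). The gene that rose was Ptgs2, the inducible prostaglandin synthase, described below. Among 24 ion channel and calcium handling genes 1 rose, Scn7a, and 1 fell, beside 1.37% higher and 4.31% lower over all genes. The one that fell, the cation channel Trpv2, had 1.17, 1.82 and 0.398 FPKM in dermal papilla, against 10.7, 10.5 and 6.88 FPKM in dermal stem cells (log2 fold change -2.32 ± 0.34 (SE), adjusted p = 0.014).

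The papilla markers that passed were all higher in dermal papilla. Of 35 tested markers, 7 rose and 0 fell, with a median log2 fold change of 1.01, and with the replicate block 16 higher and 1 lower passed. Leaving out papilla replicates 1 and 2 gave 12 higher and 0 lower. The 7 higher papilla markers numbered 7, 1 and 8 without papilla replicate 1, 2 or 4, and 0, 0 and 1 without stem cell replicate 1, 2 or 4. Papilla markers that rose numbered 1 with no filter. The summed level was 1042, 1628 and 4080.0 FPKM in dermal papilla, against 772, 714 and 1536 FPKM in dermal stem cells. Replicate 4 was the highest library in each population, and stem cell replicate 4 was above papilla replicate 1. The markers that rose were Prdm1, Fst, Notum, Rspo3, Rspo4, Crabp1 and Spock3.

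Of the 28 papilla markers that did not pass, 21 had replicate 4 as the highest library of both populations. Sox2, given above, was not among them, and the next 3 genes were. Fgf7, a growth factor for keratinocytes, had 51.4, 76.1 and 335 FPKM in dermal papilla, against 25.2, 26.2 and 72.6 FPKM in dermal stem cells (log2 fold change 1.56, adjusted p = 0.233; 0.0134 with the replicate block). Bmp4, a BMP ligand, had 12.8, 21.1 and 51.6 FPKM in dermal papilla, against 7.61, 5.64 and 18.5 FPKM in dermal stem cells (log2 fold change 1.28, adjusted p = 0.219; 0.0261 with the block). Hhip, a hedgehog-binding protein, had 13.5, 26.98 and 93.9 FPKM in dermal papilla, against 7.64, 7.78 and 23.2 FPKM in dermal stem cells (log2 fold change 1.47, adjusted p = 0.253; 0.0208 with the block). Within each replicate number, dermal papilla was above dermal stem cells for these 3 genes. Of 19 FGF ligands, receptors and response genes tested, 0 rose and 1 fell without the block, against 3 higher and 2 lower with it. The gene that fell, Fgf13, had 2.04, 2 and 0.556 FPKM in dermal papilla, against 5.25, 6.11 and 6.87 FPKM in dermal stem cells (log2 fold change -1.54, adjusted p = 0.0445).

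Several secreted Wnt antagonists rose in dermal papilla. Of 16 listed genes, 12 were tested, of which 4 rose and 1 fell, with a median log2 fold change of 1.55, and 7 higher and 1 lower passed with the replicate block and 7 higher and 1 lower without papilla replicates 1 and 2. The 4 higher Wnt antagonists numbered 4, 3 and 5 without papilla replicate 1, 2 or 4, and 3, 3 and 3 without stem cell replicate 1, 2 or 4. Sfrp2, a secreted Frizzled-related protein (chromosome 3, 83765750 to 83774314), had 189, 179 and 153 FPKM in dermal papilla, against 11.95, 15.1 and 23.5 FPKM in dermal stem cells (log2 fold change 3.34 ± 0.26 (SE), adjusted p = 0.00348). Sfrp4, of the same family (chromosome 13, 19623175 to 19632825), had 109.7, 109 and 60.8 FPKM in dermal papilla, against 5.14, 12.4 and 6.58 FPKM in dermal stem cells (log2 fold change 3.41 ± 0.36 (SE), adjusted p = 0.00506). Every papilla library was above every stem cell library in both, and papilla replicate 4 was the lowest of its group, unlike in the summed papilla markers. Sfrp1, also of that family, had 77.2, 91.9 and 152 FPKM in dermal papilla, against 24.2, 23.5 and 17.3 FPKM in dermal stem cells (log2 fold change 2.21 ± 0.29 (SE), adjusted p = 0.00906). Notum, an enzyme that inactivates Wnt ligands, had 7.54, 14.9 and 29.5 FPKM in dermal papilla, against 2.26, 2.89 and 2.53 FPKM in dermal stem cells (log2 fold change 2.18 ± 0.44 (SE), adjusted p = 0.0365). Dkk3 went the other way, with 8.29, 18.4 and 13.4 FPKM in dermal papilla, against 37.9, 34.4 and 39.9 FPKM in dermal stem cells (log2 fold change -1.48, adjusted p = 0.0311).

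R-spondins, secreted proteins that strengthen Wnt signals, rose in 3 cases. Of 9 listed R-spondin and receptor genes, 8 were tested, of which 3 rose and 0 fell, and 4 higher and 0 lower passed with the replicate block. The 3 higher R-spondins numbered 2, 0 and 3 without papilla replicate 1, 2 or 4, and 0, 0 and 0 without stem cell replicate 1, 2 or 4. R-spondins that rose numbered 0 with no filter. Rspo3 (chromosome 10, 29453106 to 29535867) had 32.4, 63.8 and 198 FPKM in dermal papilla, against 6.81, 4.91 and 7.46 FPKM in dermal stem cells (log2 fold change 3.37 ± 0.59 (SE), adjusted p = 0.0239). Rspo4 had 23.9, 22.4 and 85.8 FPKM in dermal papilla, against 7.45, 3.61 and 6.32 FPKM in dermal stem cells (log2 fold change 2.49 ± 0.52 (SE), adjusted p = 0.0403), and Rspo2 had 8.03, 12.3 and 43.1 FPKM in dermal papilla, against 1.65, 2.14 and 2.47 FPKM in dermal stem cells (log2 fold change 2.51 ± 0.55 (SE), adjusted p = 0.0456). Papilla replicate 4 was the highest library for all 3 genes, and none overlapped between the populations. Rspo1, whose populations overlapped, had 23.9, 32.3 and 115 FPKM in dermal papilla, against 14.9, 12.3 and 30.3 FPKM in dermal stem cells (adjusted p = 0.235; 0.0273 with the replicate block).

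Wnt ligands and Frizzled receptors, in contrast, gave 0 higher and 5 lower among 23 genes tested, and 0 higher and 2 lower after median-of-ratios scaling and 1 higher and 5 lower with the block. The 5 lower ligand and receptor genes numbered 2, 2 and 7 without papilla replicate 1, 2 or 4, and 0, 0 and 0 without stem cell replicate 1, 2 or 4. Ligand and receptor genes that fell numbered 1 with no filter, 3 with a filter at 5 FPKM and 2 after quantile normalization. The ligand Wnt9a had 0.971, 1.21 and 0.484 FPKM in dermal papilla, against 5.72, 4.69 and 6.898 FPKM in dermal stem cells (log2 fold change -1.85 ± 0.28 (SE), adjusted p = 0.0159) and the ligand Wnt5b had 1.21, 1.99 and 2.56 FPKM in dermal papilla, against 6.07, 5.65 and 5.38 FPKM in dermal stem cells (log2 fold change -1.22, adjusted p = 0.0472). The receptor Fzd7 had 3.53, 3.73 and 4.33 FPKM in dermal papilla, against 11.3, 11.7 and 12.2 FPKM in dermal stem cells (log2 fold change -1.39 ± 0.21 (SE), adjusted p = 0.0146), and Fzd2 had 1.64, 2.64 and 3.12 FPKM in dermal papilla, against 7.295, 8.77 and 10.6 FPKM in dermal stem cells (log2 fold change -1.52, adjusted p = 0.026). The fifth was the coreceptor Lrp6. Of 17 Wnt target genes tested, 2 rose and 0 fell, Notum and Tnfrsf19, and 4 higher and 0 lower passed with the block. Tnfrsf19, a receptor of the tumour necrosis factor family, had 5.15, 7.46 and 4.85 FPKM in dermal papilla, against 1.25, 1.91 and 1.18 FPKM in dermal stem cells (log2 fold change 1.47, adjusted p = 0.0291). Lef1, a nuclear mediator of Wnt signals, had 6.72, 17.9 and 33.6 FPKM in dermal papilla, against 3.72, 3.85 and 5.21 FPKM in dermal stem cells (log2 fold change 1.72, adjusted p = 0.096; 0.0293 with the block).

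In the BMP family, 5 of 21 tested ligands and antagonists rose and 0 fell, against 7 higher and 1 lower with the replicate block. The 5 higher BMP genes numbered 2, 2 and 5 without papilla replicate 1, 2 or 4, and 0, 0 and 1 without stem cell replicate 1, 2 or 4. BMP genes that rose numbered 3 with a pseudocount of 0.1 and 1 with no filter. Fst, the activin and BMP antagonist follistatin, had 52.1, 76.5 and 79.4 FPKM in dermal papilla, against 17.4, 20.7 and 23.7 FPKM in dermal stem cells (log2 fold change 1.69 ± 0.23 (SE), adjusted p = 0.0109). Chrdl1, a BMP antagonist related to chordin, had 21.3, 20.4 and 11.8 FPKM in dermal papilla, against 3.902, 4.38 and 1.83 FPKM in dermal stem cells (log2 fold change 2.12 ± 0.35 (SE), adjusted p = 0.0188). The ligands that rose were Bmp7 with 9.32, 13.6 and 20.6 FPKM in dermal papilla, against 2.96, 3.53 and 2.84 FPKM in dermal stem cells (log2 fold change 1.85, adjusted p = 0.0199) and Gdf10 with 24.02, 13.01 and 49.9 FPKM in dermal papilla, against 7.303, 3.93 and 4.18 FPKM in dermal stem cells (log2 fold change 2.13, adjusted p = 0.0458). The fifth was Chrd, chordin itself. Of 15 BMP receptors and response genes, 0 passed in either direction by limma, with or without the replicate block; unadjusted p was under 0.05 for 1 higher and 2 lower, and their median log2 fold change was -0.21.

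The hedgehog transcription factors Gli1 and Gli2 fell in dermal papilla. Of 12 pathway genes tested, 0 rose and 2 fell, and 1 higher and 3 lower passed with the replicate block. Gli1, a transcription factor and target of the pathway, had 6.4, 7.39 and 12.4 FPKM in dermal papilla, against 33.3, 36.8 and 47.9 FPKM in dermal stem cells (log2 fold change -2.08 ± 0.28 (SE), adjusted p = 0.00955). Gli2, of the same family, had 1.62, 2.88 and 4.095 FPKM in dermal papilla, against 14.2, 10.5 and 16.9 FPKM in dermal stem cells (log2 fold change -1.97 ± 0.32 (SE), adjusted p = 0.0181). Both factors were several times lower in every papilla library. Gli1 passed under all 16 alternatives and Gli2 under 10. Gli2 did not pass with no filter, nor without papilla replicate 2 or without any 1 of the stem cell replicates. The receptor Ptch1 had 6.49, 7.58 and 17.6 FPKM in dermal papilla, against 23.95, 16.2 and 40.1 FPKM in dermal stem cells (log2 fold change -1.29, adjusted p = 0.131; 0.0176 with the replicate block).

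Insulin-like growth factor binding proteins changed in both directions. Of 15 genes tested, 2 rose and 3 fell, against 3 higher and 3 lower with the replicate block. The 2 higher growth factor genes numbered 1, 1 and 2 without papilla replicate 1, 2 or 4, and 0, 0 and 0 without stem cell replicate 1, 2 or 4. Growth factor genes that rose numbered 0 with a pseudocount of 0.1, 1 with a pseudocount of 5, 0 with no filter and 0 with no trend. The 3 lower growth factor genes numbered 2, 2 and 3 without papilla replicate 1, 2 or 4, and 2, 2 and 2 without stem cell replicate 1, 2 or 4. Igfbp4 (chromosome 11, 99040005 to 99052655) had 56.6, 88.4 and 121 FPKM in dermal papilla, against 1104, 785 and 1210.0 FPKM in dermal stem cells (log2 fold change -3.57 ± 0.33 (SE), adjusted p = 0.00394), and Igfbp2 had 5.48, 13.5 and 3.85 FPKM in dermal papilla, against 83.2, 129 and 191 FPKM in dermal stem cells (log2 fold change -4.05 ± 0.46 (SE), adjusted p = 0.0062). Igfbp7 had 579, 636 and 716 FPKM in dermal papilla, against 2229, 1718 and 2545 FPKM in dermal stem cells (log2 fold change -1.73 ± 0.30 (SE), adjusted p = 0.0222), and was at a high level in both populations. Igfbp5 rose, with 169, 121 and 284 FPKM in dermal papilla, against 63.6, 70.8 and 69.9 FPKM in dermal stem cells (log2 fold change 1.39, adjusted p = 0.0487). Pappa2, a protease that cleaves these binding proteins, had 11.7, 22.1 and 60.5 FPKM in dermal papilla, against 4.32, 2.88 and 4.87 FPKM in dermal stem cells (log2 fold change 2.41 ± 0.54 (SE), adjusted p = 0.0478).

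**Figure D4:**
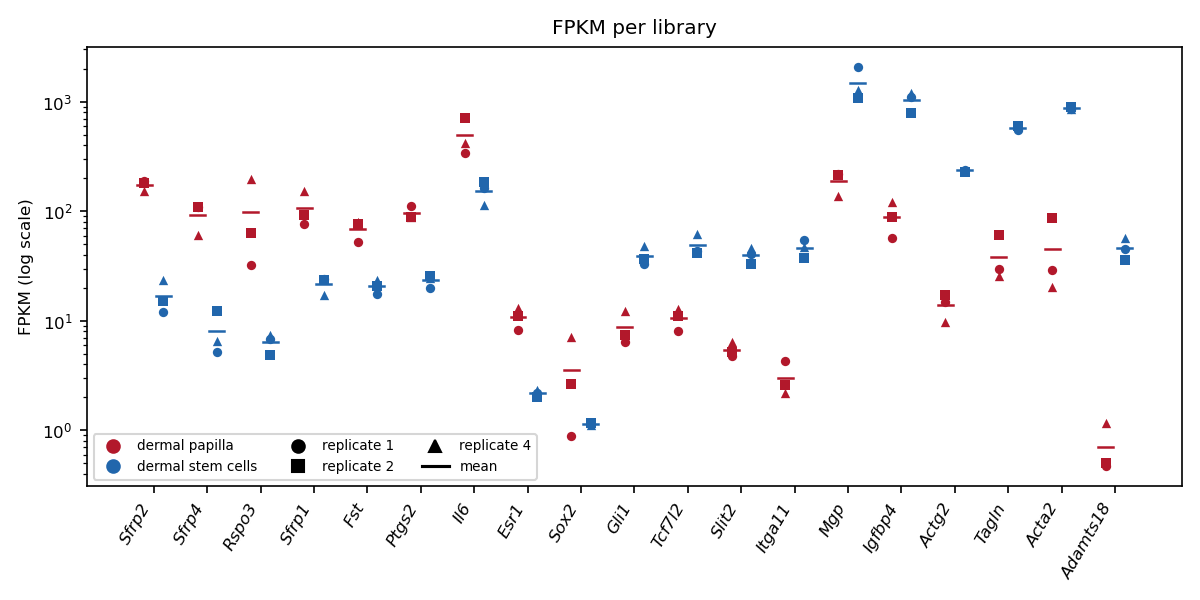
FPKM on a log axis for 19 genes named in the text, 1 marker per library with dermal papilla (red) left of dermal stem cells (blue), and a bar at the mean of the 3 libraries. For Sox2 the papilla values, 0.882, 2.66 and 7.17 FPKM, straddle the stem cell values, 1.15, 1.17 and 1.11 FPKM; for the other 18 genes the populations are separate.

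TGF-beta and activin genes gave 1 higher (Fst) and 4 lower among 25 tested, and 3 higher and 5 lower with the replicate block. The 4 lower TGF-beta genes numbered 3, 2 and 5 without papilla replicate 1, 2 or 4, and 1, 1 and 1 without stem cell replicate 1, 2 or 4. TGF-beta genes that fell numbered 1 with no filter and 2 after median-of-ratios scaling. Ctgf, a matricellular protein induced by TGF-beta, had 31.7, 58.2 and 29.1 FPKM in dermal papilla, against 370.4, 289.8 and 270.1 FPKM in dermal stem cells (log2 fold change -2.99 ± 0.30 (SE), adjusted p = 0.00474). The ligand Tgfb1 had 10.7, 8.23 and 4.64 FPKM in dermal papilla, against 41.5, 26.6 and 31.5 FPKM in dermal stem cells (log2 fold change -1.99 ± 0.31 (SE), adjusted p = 0.0172). The latent TGF-beta binding proteins Ltbp4 and Ltbp2 also fell. Among PDGF genes, the receptor Pdgfrb had 8.77, 8.28 and 9.98 FPKM in dermal papilla, against 24.6, 24.7 and 26.95 FPKM in dermal stem cells (log2 fold change -1.40 ± 0.18 (SE), adjusted p = 0.00907). Pdgfra, a general fibroblast receptor, had 28.4, 28.9 and 47.4 FPKM in dermal papilla, against 49.01, 48.9 and 70.6 FPKM in dermal stem cells (log2 fold change -0.69, adjusted p = 0.172; 0.0497 with the block). Of 7 PDGF genes tested, Pdgfrb was the 1 that passed, and 0 higher and 2 lower did with the block. Of 16 Notch genes 1 fell, the target Heyl, and 0 higher and 4 lower passed with the block. Over all genes the share that fell was 4.31%, beside which the single PDGF and Notch calls are to be read. Heyl had 0.564, 0.659 and 0.4997 FPKM in dermal papilla, against 4.15, 4.03 and 4.73 FPKM in dermal stem cells (log2 fold change -1.75, adjusted p = 0.0116).

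Retinoic acid genes gave 3 higher and 1 lower among 18 tested, against 4 higher and 2 lower with the replicate block and 1 higher and 2 lower in the fit of 12 libraries. The 3 higher retinoic acid genes numbered 1, 1 and 3 without papilla replicate 1, 2 or 4, and 0, 0 and 0 without stem cell replicate 1, 2 or 4. Retinoic acid genes that rose numbered 0 with no filter, 1 in the fit of 12 libraries, 1 with no trend and 1 without papilla replicates 1 and 2. Crabp1, a cytoplasmic retinoic acid binding protein, had 86.2, 211 and 636 FPKM in dermal papilla, against 24.1, 25.2 and 40.5 FPKM in dermal stem cells (log2 fold change 2.92 ± 0.65 (SE), adjusted p = 0.0479). The 3 papilla libraries were above all stem cell libraries but spread widely, with replicate 4 the highest. Aldh1a1, an enzyme that makes retinoic acid, had 7.71, 10.7 and 5.79 FPKM in dermal papilla, against 1.21, 1.76 and 1.12 FPKM in dermal stem cells (log2 fold change 1.91 ± 0.29 (SE), adjusted p = 0.0157). Rarres2, the chemerin gene, had 209, 168 and 153 FPKM in dermal papilla, against 84.5, 97.1 and 86.6 FPKM in dermal stem cells (log2 fold change 0.96, adjusted p = 0.0403). Rara, a retinoic acid receptor, had 5.83, 7.62 and 10.02 FPKM in dermal papilla, against 29.9, 23.2 and 28.3 FPKM in dermal stem cells (log2 fold change -1.69 ± 0.24 (SE), adjusted p = 0.012).

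Among transcription factors of papilla and mesenchyme, most that passed were lower in dermal papilla. The same held over all genes that passed, of which 24.1% were higher. Of 51 tested, 1 rose and 8 fell, with a median log2 fold change of -0.09. After median-of-ratios scaling 2 higher and 2 lower passed and the median was 0.11, and with the replicate block 3 higher and 12 lower passed. The 8 lower transcription factors numbered 2, 2 and 10 without papilla replicate 1, 2 or 4, and 1, 1 and 1 without stem cell replicate 1, 2 or 4. Transcription factors that fell numbered 5 with a pseudocount of 0.1, 2 with no filter, 2 after quantile normalization and 2 without papilla replicates 1 and 2. Prdm1, a repressor found in papilla precursors, had 21.99, 16.8 and 15.2 FPKM in dermal papilla, against 7.11, 6.58 and 9.61 FPKM in dermal stem cells (log2 fold change 1.11, adjusted p = 0.0427). Tcf7l2, a nuclear mediator of Wnt signals, had 8.1, 11.1 and 12.8 FPKM in dermal papilla, against 43.4, 41.8 and 61.7 FPKM in dermal stem cells (log2 fold change -2.09 ± 0.25 (SE), adjusted p = 0.00686). Mkx, a factor of tendon cells, had 0.174, 1.56 and 1.46 FPKM in dermal papilla, against 7.43, 8.86 and 10.2 FPKM in dermal stem cells (log2 fold change -2.32 ± 0.36 (SE), adjusted p = 0.0164). Prrx2 had 10.8, 8.18 and 15.3 FPKM in dermal papilla, against 38.4, 30.1 and 72.3 FPKM in dermal stem cells (log2 fold change -1.89, adjusted p = 0.0308), and Tbx15 had 22.7, 26.9 and 37.3 FPKM in dermal papilla, against 64.3, 62.8 and 111 FPKM in dermal stem cells (log2 fold change -1.40, adjusted p = 0.0403). Foxd2, Tcf7l1, Hic1 and Twist2 were the others that fell. Of 22 Hox genes tested, 0 passed in either direction by limma, with or without the block, and unadjusted p was under 0.05 for 1 higher and 1 lower.

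Matrix genes were mixed, and the main fibrillar collagens did not pass. The chains of the main skin collagens had high levels in both populations, Col1a1 with 7642, 3167 and 5729 FPKM in dermal papilla, against 2639, 2405 and 3230.0 FPKM in dermal stem cells (log2 fold change 0.92, adjusted p = 0.268) and Col3a1 with 6107, 4125 and 5287 FPKM in dermal papilla, against 1677, 1813 and 2020.0 FPKM in dermal stem cells (log2 fold change 1.48, adjusted p = 0.061; 0.028 with the replicate block). Col1a1 overlapped between the populations and Col3a1 did not. Some minor collagens fell. Col11a1 had 2.099, 5.54 and 9.24 FPKM in dermal papilla, against 44.6, 47.8 and 152 FPKM in dermal stem cells (log2 fold change -3.56 ± 0.58 (SE), adjusted p = 0.0188), the only one of 8 tested fibrillar collagens to pass without the block. Col8a2 had 0.949, 1.203 and 2.24 FPKM in dermal papilla, against 35.1, 24.9 and 36.8 FPKM in dermal stem cells (log2 fold change -3.77 ± 0.28 (SE), adjusted p = 0.00272), and Col12a1 had 5.57, 9.77 and 9.16 FPKM in dermal papilla, against 48.7, 48.9 and 98.02 FPKM in dermal stem cells (log2 fold change -2.81 ± 0.34 (SE), adjusted p = 0.00723). The basement membrane chains Col4a1 and Col4a2 fell by less, with log2 fold changes of -1.12 and -1.18. Of 21 other collagens tested, 0 rose and these 4 fell, against 2 higher and 5 lower with the block. The 4 lower other collagens numbered 2, 4 and 4 without papilla replicate 1, 2 or 4, and 2, 2 and 2 without stem cell replicate 1, 2 or 4. Other collagens that fell numbered 2 with no filter, 2 after median-of-ratios scaling, 2 after quantile normalization, 2 in the fit of 12 libraries and 2 without papilla replicates 1 and 2. With the block the fibrillar collagens gave 1 higher and 1 lower.

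Among proteoglycans, 2 of 26 tested rose and 7 fell, against 3 higher and 8 lower with the replicate block. The 7 lower proteoglycans numbered 5, 5 and 6 without papilla replicate 1, 2 or 4, and 3, 3 and 3 without stem cell replicate 1, 2 or 4. Proteoglycans that fell numbered 4 with no filter and 4 without papilla replicates 1 and 2. Acan, the cartilage proteoglycan aggrecan, had 0.06796, 0.104 and 0.983 FPKM in dermal papilla, against 10.9, 8.41 and 25.1 FPKM in dermal stem cells (log2 fold change -3.43 ± 0.45 (SE), adjusted p = 0.00907). Hapln3, a link protein that binds hyaluronan, had 0.9302, 0.485 and 0.306 FPKM in dermal papilla, against 11.6, 11.02 and 26.8 FPKM in dermal stem cells (log2 fold change -3.38 ± 0.38 (SE), adjusted p = 0.0062), and Omd, osteomodulin, had 18.7, 24.7 and 18.8 FPKM in dermal papilla, against 117, 98.5 and 204 FPKM in dermal stem cells (log2 fold change -2.63 ± 0.30 (SE), adjusted p = 0.0062). The abundant small proteoglycan Bgn had 613, 349.6 and 588 FPKM in dermal papilla, against 2058, 1448 and 2683 FPKM in dermal stem cells (log2 fold change -1.99, adjusted p = 0.0274). Those that rose were Spock3 and Gpc6. Spock3, a testican, had 3.69, 9.88 and 14.98 FPKM in dermal papilla, against 0.426, 0.03001 and 0.145 FPKM in dermal stem cells (log2 fold change 2.97 ± 0.46 (SE), adjusted p = 0.0164), and Gpc6, a glypican, had 8.81, 10.4 and 21.4 FPKM in dermal papilla, against 3.06, 2.497 and 2.96 FPKM in dermal stem cells (log2 fold change 1.82, adjusted p = 0.0283).

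Matricellular proteins gave 2 higher and 4 lower among 28 tested, against 4 higher and 5 lower with the replicate block. The 4 lower matricellular genes numbered 3, 3 and 4 without papilla replicate 1, 2 or 4, and 2, 3 and 2 without stem cell replicate 1, 2 or 4. Mgp, matrix Gla protein, an inhibitor of calcification (chromosome 6, 136872435 to 136875823), had 219, 214 and 137 FPKM in dermal papilla, against 2072, 1088 and 1266 FPKM in dermal stem cells (log2 fold change -2.93 ± 0.34 (SE), adjusted p = 0.0065). Wisp1 had 2.002, 3.72 and 4.92 FPKM in dermal papilla, against 19.98, 14.8 and 24.04 FPKM in dermal stem cells (log2 fold change -2.21 ± 0.32 (SE), adjusted p = 0.0127). Against them, 1500015O10Rik had 17.7, 28.6 and 28.1 FPKM in dermal papilla, against 3.11, 3.76 and 1.01 FPKM in dermal stem cells (log2 fold change 2.89 ± 0.38 (SE), adjusted p = 0.00896). Elastic fibre genes gave 0 higher and 4 lower among 23 tested, and 0 higher and 0 lower after median-of-ratios scaling and 2 higher and 5 lower with the block. The 4 lower elastic fibre genes numbered 1, 0 and 5 without papilla replicate 1, 2 or 4, and 0, 0 and 0 without stem cell replicate 1, 2 or 4. Elastic fibre genes that fell numbered 0 with no filter, 1 after quantile normalization and 1 without papilla replicates 1 and 2. Mfap5, a microfibril protein, had 119.8, 109.8 and 89.4 FPKM in dermal papilla, against 229, 191 and 264 FPKM in dermal stem cells (log2 fold change -1.09, adjusted p = 0.0361). Of 23 laminins and basement membrane genes, 0 rose and 3 fell, Nid2, Npnt and Fbln2, against 0 higher and 4 lower with the block. The 3 lower basement membrane genes numbered 0, 1 and 3 without papilla replicate 1, 2 or 4, and 0, 1 and 2 without stem cell replicate 1, 2 or 4. Basement membrane genes that fell numbered 1 with no filter and 0 without papilla replicates 1 and 2. Npnt, a ligand of integrin alpha 8, had 1.63, 3.17 and 1.57 FPKM in dermal papilla, against 15.4, 21.8 and 6.82 FPKM in dermal stem cells (log2 fold change -2.23 ± 0.43 (SE), adjusted p = 0.0306).

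Matrix enzymes gave 0 higher and 5 lower among 36 tested, and 1 higher and 9 lower with the replicate block. The 5 lower matrix enzyme genes numbered 3, 4 and 7 without papilla replicate 1, 2 or 4, and 1, 3 and 2 without stem cell replicate 1, 2 or 4. Matrix enzyme genes that fell numbered 3 with no filter, 8 with a filter at 5 FPKM and 9 in the fit of 12 libraries. Adamts18, a metalloproteinase (chromosome 8, 113697123 to 113849343), had 0.469, 0.501 and 1.16 FPKM in dermal papilla, against 45.2, 35.9 and 56.6 FPKM in dermal stem cells (log2 fold change -4.78 ± 0.27 (SE), adjusted p = 0.000865). Mmp11, stromelysin 3, had 1.51, 3.71 and 0.6502 FPKM in dermal papilla, against 18.4, 16.9 and 21.5 FPKM in dermal stem cells (log2 fold change -2.88 ± 0.39 (SE), adjusted p = 0.00979). Adamts6 and Adamts7 fell with log2 fold changes of -2.42 and -2.01, and Adam33 was the fifth. Lrrc15, a membrane protein of matrix-producing fibroblasts (chromosome 16, 30269302 to 30283254), had 5.67, 15.9 and 6.04 FPKM in dermal papilla, against 265, 195 and 456 FPKM in dermal stem cells (log2 fold change -4.96 ± 0.44 (SE), adjusted p = 0.00394). Pcolce2, an enhancer of collagen processing, rose, with 75.4, 40.4 and 56.02 FPKM in dermal papilla, against 12.7, 15.04 and 11.4 FPKM in dermal stem cells (log2 fold change 2.02 ± 0.26 (SE), adjusted p = 0.00892), the single call among 31 tested collagen folding and crosslinking genes without the block, against 3 higher and 1 lower with it.

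Integrins gave 0 higher and 5 lower among 20 tested, 0 higher and 2 lower after median-of-ratios scaling and 1 higher and 2 lower without papilla replicates 1 and 2. The 5 lower integrins numbered 3, 2 and 5 without papilla replicate 1, 2 or 4, and 2, 2 and 2 without stem cell replicate 1, 2 or 4. Integrins that fell numbered 3 with no filter, 2 after quantile normalization and 3 with no trend. Itga11, a collagen receptor subunit, had 4.25, 2.603 and 2.21 FPKM in dermal papilla, against 54.1, 37.4 and 47.1 FPKM in dermal stem cells (log2 fold change -3.57 ± 0.26 (SE), adjusted p = 0.00272). Itga8, which pairs with beta 1 and binds nephronectin, had 0.586, 4.39 and 6.44 FPKM in dermal papilla, against 18.7, 22.1 and 23.9 FPKM in dermal stem cells (log2 fold change -2.49 ± 0.54 (SE), adjusted p = 0.0442). Itgbl1, Itgb5 and Itgb1 fell with log2 fold changes of -1.67, -1.07 and -0.99. The integrin counts include Itgbl1, which is integrin-like and not an integrin subunit. Among cadherins and other adhesion molecules, 4 of 25 tested rose and 2 fell, against 7 higher and 3 lower with the replicate block. The 4 higher adhesion genes numbered 2, 2 and 8 without papilla replicate 1, 2 or 4, and 0, 1 and 1 without stem cell replicate 1, 2 or 4. Adhesion genes that rose numbered 1 with no filter, 2 with a filter at 5 FPKM, 8 after quantile normalization and 11 in the fit of 12 libraries. Mcam, an adhesion molecule of perivascular cells, had 7.26, 11.6 and 8.99 FPKM in dermal papilla, against 76.9, 77.4 and 70.6 FPKM in dermal stem cells (log2 fold change -2.91 ± 0.21 (SE), adjusted p = 0.00272), and Cdh13, a cadherin without a transmembrane segment, had 25.2, 17.7 and 21.3 FPKM in dermal papilla, against 151, 78.3 and 128 FPKM in dermal stem cells (log2 fold change -2.39 ± 0.28 (SE), adjusted p = 0.00686). Cntn1, a neuronal contactin, had 7.42, 10.9 and 22.9 FPKM in dermal papilla, against 2.43, 0.743 and 1.28 FPKM in dermal stem cells (log2 fold change 2.49 ± 0.44 (SE), adjusted p = 0.0247), and Cdh19 is described with the Schwann cell markers.

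Axon guidance genes gave 1 higher and 8 lower among 51 tested, 2 higher and 8 lower with the block and 2 higher and 3 lower without papilla replicates 1 and 2. The 8 lower axon guidance genes numbered 5, 5 and 9 without papilla replicate 1, 2 or 4, and 2, 3 and 3 without stem cell replicate 1, 2 or 4. Axon guidance genes that fell numbered 3 with no filter and 5 after median-of-ratios scaling. Slit2, a repellent for axons, had 4.82, 5.17 and 6.41 FPKM in dermal papilla, against 40.6, 32.7 and 46.5 FPKM in dermal stem cells (log2 fold change -2.66 ± 0.22 (SE), adjusted p = 0.00371), and Slit3 had 28.8, 16.3 and 31.1 FPKM in dermal papilla, against 127, 78.3 and 131 FPKM in dermal stem cells (log2 fold change -2.11 ± 0.31 (SE), adjusted p = 0.0145). Ntn1, a netrin, had 7.76, 9.33 and 5.93 FPKM in dermal papilla, against 51.4, 43.5 and 55.6 FPKM in dermal stem cells (log2 fold change -2.57 ± 0.22 (SE), adjusted p = 0.00388), and Ntn4 had 1.87, 5.13 and 5.302 FPKM in dermal papilla, against 31.9, 26.2 and 16.1 FPKM in dermal stem cells (log2 fold change -2.37 ± 0.39 (SE), adjusted p = 0.0195). None of these 4 genes overlapped between the populations. The gene that rose was Sema3b. Of 25 neurotrophic and neuronal genes, 1 rose and 5 fell, against 2 higher and 5 lower with the replicate block. The 5 lower neuronal genes numbered 3, 3 and 6 without papilla replicate 1, 2 or 4, and 2, 4 and 3 without stem cell replicate 1, 2 or 4. Neuronal genes that fell numbered 3 with no filter, 3 after quantile normalization and 2 without papilla replicates 1 and 2. The neurotrophin receptor Ntrk2 had 8.52, 8.84 and 7.45 FPKM in dermal papilla, against 56.9, 38.5 and 47.8 FPKM in dermal stem cells (log2 fold change -2.38 ± 0.21 (SE), adjusted p = 0.00394). Ntrk3, of the same family, had 5.701, 5.66 and 14.7 FPKM in dermal papilla, against 64.6, 47.6 and 59.2 FPKM in dermal stem cells (log2 fold change -2.70 ± 0.36 (SE), adjusted p = 0.00919). Stmn2, a microtubule regulator of neurons, had 1.49, 1.68 and 3.57 FPKM in dermal papilla, against 53.98, 33.5 and 141 FPKM in dermal stem cells (log2 fold change -4.37 ± 0.52 (SE), adjusted p = 0.00686). Syt4, a synaptotagmin, rose, with 10.7, 12.8 and 3.75 FPKM in dermal papilla, against 0.3704, 0.487 and 0.356 FPKM in dermal stem cells (log2 fold change 2.70 ± 0.42 (SE), adjusted p = 0.0166).

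Several inflammatory mediators rose in dermal papilla. Of 37 chemokine, cytokine and complement genes tested, 5 rose and 2 fell, and 11 higher and 2 lower passed with the replicate block; without papilla replicates 1 and 2, 1 higher and 1 lower passed. The 5 higher inflammatory genes numbered 1, 1 and 7 without papilla replicate 1, 2 or 4, and 0, 0 and 0 without stem cell replicate 1, 2 or 4. Inflammatory genes that rose numbered 1 with no filter, 8 after quantile normalization and 3 with no trend. Il6, an inflammatory cytokine, had 341, 714 and 419.9 FPKM in dermal papilla, against 163, 186 and 113 FPKM in dermal stem cells (log2 fold change 1.62 ± 0.34 (SE), adjusted p = 0.0396). Il33, an alarm signal of stromal and epithelial cells, had 99.8, 78.4 and 40.9 FPKM in dermal papilla, against 22.9, 22.6 and 22.2 FPKM in dermal stem cells (log2 fold change 1.56 ± 0.32 (SE), adjusted p = 0.0383), and its receptor Il1rl1 had 13.7, 12.4 and 7.29 FPKM in dermal papilla, against 2.23, 4.43 and 1.14 FPKM in dermal stem cells (log2 fold change 1.82, adjusted p = 0.0463). The complement component C7 had 47.9, 11.8 and 30.4 FPKM in dermal papilla, against 4.33, 1.86 and 2.27 FPKM in dermal stem cells (log2 fold change 2.87 ± 0.50 (SE), adjusted p = 0.0238), and Ccl11 was the fifth. Cxcl12, a chemokine of stromal cells, fell, with 72.04, 81.9 and 94.7 FPKM in dermal papilla, against 274, 426 and 237 FPKM in dermal stem cells (log2 fold change -1.87 ± 0.27 (SE), adjusted p = 0.0127), and its receptor Cxcr4 had 17.1, 16.4 and 6.28 FPKM in dermal papilla, against 71.02, 32.5 and 48.1 FPKM in dermal stem cells (log2 fold change -1.90, adjusted p = 0.0481). Keratinocyte sums were highest in papilla replicates 1 and 2 and immune sums overlapped between the populations, as given above; the part of either in these genes was not tested.

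Of 26 genes of steroid and lipid signalling, 2 rose and 1 fell, and 7 higher and 1 lower passed with the block. Ptgs2 had 112, 88.6 and 88.6 FPKM in dermal papilla, against 19.96, 25.7 and 24.6 FPKM in dermal stem cells (log2 fold change 1.99 ± 0.20 (SE), adjusted p = 0.0045), with little spread in either group. Esr1, the estrogen receptor, had 8.16, 11.01 and 13.1 FPKM in dermal papilla, against 2.21, 2.004 and 2.33 FPKM in dermal stem cells (log2 fold change 1.87 ± 0.25 (SE), adjusted p = 0.01). Cyp1b1, a cytochrome P450, had 6.94, 10.4 and 12.7 FPKM in dermal papilla, against 29.2, 37.7 and 31.1 FPKM in dermal stem cells (log2 fold change -1.64 ± 0.25 (SE), adjusted p = 0.016). Outside the lists, the neuropeptide gene Npy had 15.7, 21.8 and 27.6 FPKM in dermal papilla, against 1.75, 1.62 and 2.37 FPKM in dermal stem cells (log2 fold change 2.94 ± 0.27 (SE), adjusted p = 0.00394), and the beta-defensin gene Defb6 had 80.5, 189.9 and 158 FPKM in dermal papilla, against 17.7, 23.1 and 10.6 FPKM in dermal stem cells (log2 fold change 2.96 ± 0.39 (SE), adjusted p = 0.00907). Neither overlapped between the populations.

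**Figure D5:**
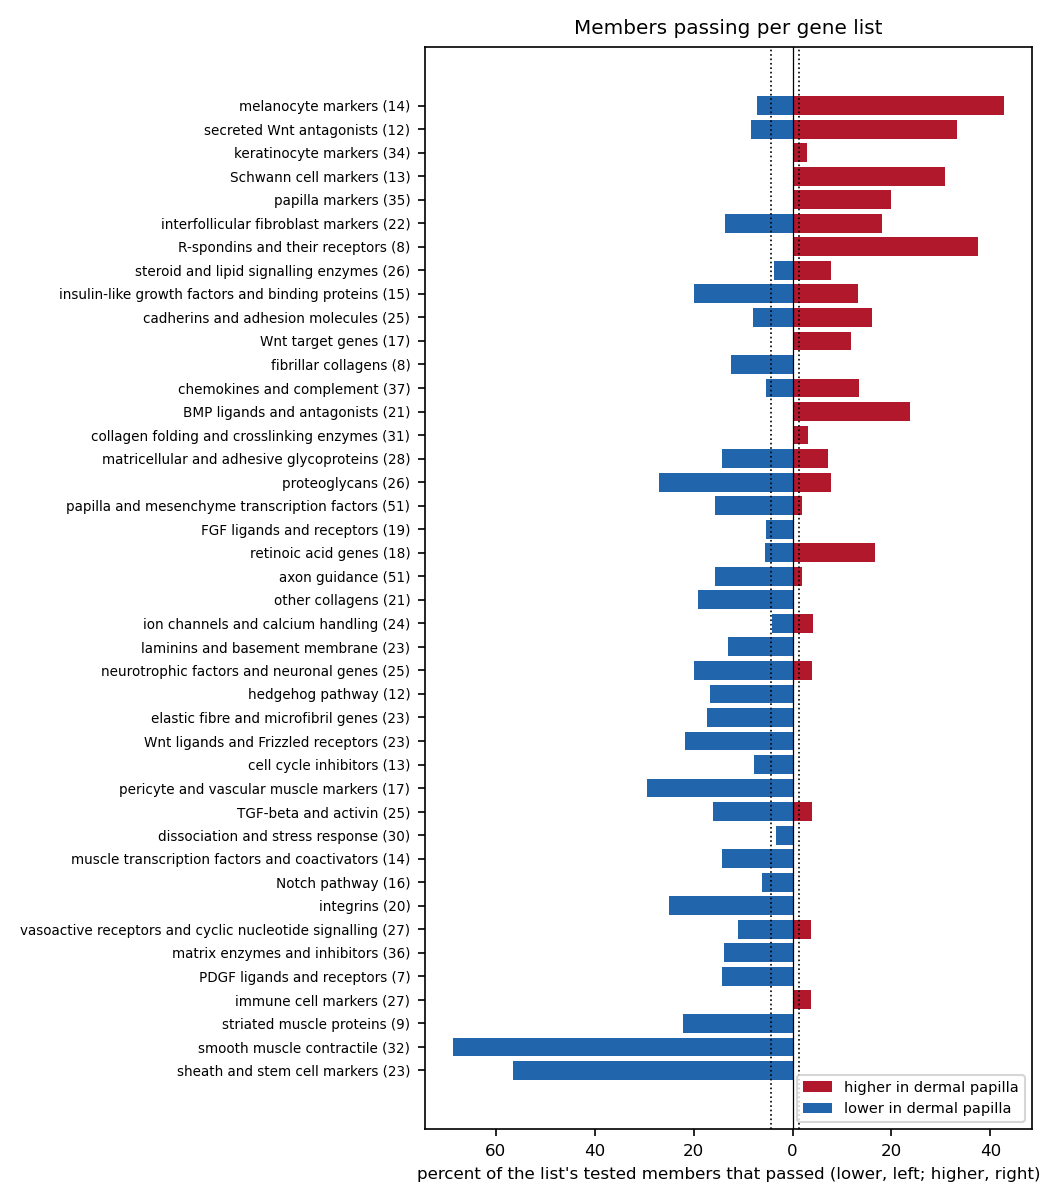
Percent of each list's tested members that passed as lower (blue, left) or higher (red, right) in dermal papilla, for the 42 of 50 lists with at least 1 such gene, ordered by median log2 fold change, with the number tested in brackets. Dotted lines mark the share over all genes, 4.31% lower and 1.37% higher; the contractile list reaches furthest left and the melanocyte list furthest right.

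Pigment cell genes were among the largest rises. Of 14 melanocyte markers tested, 6 rose and 1 fell, and 12 higher and 1 lower passed with the replicate block; without papilla replicates 1 and 2, 1 higher and 1 lower passed. The 6 higher melanocyte markers numbered 2, 3 and 11 without papilla replicate 1, 2 or 4, and 1, 2 and 2 without stem cell replicate 1, 2 or 4. Melanocyte markers that rose numbered 3 with no filter. Dct, a pigment enzyme, had 299, 226 and 80.2 FPKM in dermal papilla, against 20.9, 29.9 and 4.56 FPKM in dermal stem cells (log2 fold change 3.51 ± 0.71 (SE), adjusted p = 0.0374). Tyr, tyrosinase, had 29.8, 14.9 and 9.87 FPKM in dermal papilla, against 1.76, 2.42 and 0.3303 FPKM in dermal stem cells (log2 fold change 2.91 ± 0.49 (SE), adjusted p = 0.0212), and Mlana, a melanosome protein, had 151, 114 and 57.7 FPKM in dermal papilla, against 13.8, 22.8 and 2.69 FPKM in dermal stem cells (log2 fold change 3.21 ± 0.68 (SE), adjusted p = 0.0423). For all 3 genes papilla replicate 1 was highest and papilla replicate 4 lowest, the reverse of the summed papilla markers, yet every papilla library was above every stem cell library. Slc24a5, a melanosome ion exchanger, had 40.02, 43.7 and 19.2 FPKM in dermal papilla, against 4.91, 4.17 and 3.34 FPKM in dermal stem cells (log2 fold change 2.71 ± 0.33 (SE), adjusted p = 0.00758). The member that fell was Ednrb, which mesenchyme also expresses.

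Keratinocyte markers gave 1 higher and 0 lower among 34 tested, against 18 higher and 0 lower with the block and 0 higher and 0 lower without papilla replicates 1 and 2. Their median log2 fold change was 1.38. Krt1, a keratin of differentiated epidermis, had 670.2, 427 and 216 FPKM in dermal papilla, against 68.4, 92.9 and 72.6 FPKM in dermal stem cells (log2 fold change 2.34 ± 0.40 (SE), adjusted p = 0.0229). The basal keratins overlapped between the populations, Krt5 with 142, 198 and 81.02 FPKM in dermal papilla, against 96.1, 179 and 79.4 FPKM in dermal stem cells (adjusted p = 0.751) and Krt14 with 96.02, 163 and 60.9 FPKM in dermal papilla, against 69.3, 98.9 and 37.98 FPKM in dermal stem cells (adjusted p = 0.435). Hair matrix and shaft markers gave 0 calls in either direction by limma among 21 tested, 1 higher and 0 lower with the block, and 1 higher and 0 lower at an unadjusted p under 0.05.

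Schwann cell markers gave 4 higher and 0 lower among 13 tested, against 5 higher and 0 lower with the block. The 4 higher Schwann cell markers numbered 4, 1 and 6 without papilla replicate 1, 2 or 4, and 0, 2 and 1 without stem cell replicate 1, 2 or 4. Schwann cell markers that rose numbered 1 with no filter and 1 with a filter at 5 FPKM. Cdh19, a cadherin of that lineage, had 3.31, 6.504 and 8.35 FPKM in dermal papilla, against 0.0215, 0.0607 and 0.0975 FPKM in dermal stem cells (log2 fold change 2.66 ± 0.34 (SE), adjusted p = 0.00892), and Fabp7, a fatty acid binding protein, had 4.15, 11.03 and 14.7 FPKM in dermal papilla, against 0.129, 1.34 and 0 FPKM in dermal stem cells (log2 fold change 2.84 ± 0.51 (SE), adjusted p = 0.0252). The summed level of the list was 278, 415 and 266 FPKM in dermal papilla, against 458, 305 and 301 FPKM in dermal stem cells, with overlap. Scn7a, a sodium channel that is also on this list, had 4.67, 9.04 and 6.99 FPKM in dermal papilla, against 1.23, 1.45 and 1.99 FPKM in dermal stem cells (log2 fold change 1.60 ± 0.30 (SE), adjusted p = 0.0288).

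Interfollicular fibroblast markers gave 4 higher and 3 lower among 22 tested, and 10 higher and 4 lower with the block. The 4 higher fibroblast markers numbered 2, 4 and 6 without papilla replicate 1, 2 or 4, and 2, 3 and 2 without stem cell replicate 1, 2 or 4. Fibroblast markers that rose numbered 2 with no filter. The 3 lower fibroblast markers numbered 2, 2 and 3 without papilla replicate 1, 2 or 4, and 0, 0 and 0 without stem cell replicate 1, 2 or 4. Fibroblast markers that fell numbered 1 with no filter, 1 after median-of-ratios scaling and 0 without papilla replicates 1 and 2. Those that rose were Sfrp2, Sfrp4, Cd34 and Dpp4. Dpp4, a cell surface peptidase, had 25.1, 30.1 and 12.97 FPKM in dermal papilla, against 1.77, 5.18 and 2.51 FPKM in dermal stem cells (log2 fold change 2.52 ± 0.41 (SE), adjusted p = 0.0182). Those that fell included Thy1, with 112, 69.4 and 109 FPKM in dermal papilla, against 269, 274 and 264 FPKM in dermal stem cells (log2 fold change -1.50 ± 0.24 (SE), adjusted p = 0.0177). The list summed to 6305, 4195 and 5243 FPKM in dermal papilla, against 3173, 3153 and 3374 FPKM in dermal stem cells, with every papilla library above every stem cell library. Its part in the rise of Sfrp2 and Sfrp4 was not tested. Pericyte and vascular muscle markers gave 0 higher and 5 lower among 17 tested, and summed to 178, 209.7 and 102 FPKM in dermal papilla, against 314, 308 and 215 FPKM in dermal stem cells. The 5 lower pericyte markers numbered 4, 4 and 4 without papilla replicate 1, 2 or 4, and 1, 1 and 3 without stem cell replicate 1, 2 or 4. The part of these cells in the fall of the contractile genes was not tested.

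Immune cell markers gave 1 higher and 0 lower among 27 tested, against 2 higher and 1 lower with the block. Endothelial markers gave 0 calls in either direction by limma among 19 tested, 0 higher and 1 lower with the block, and 0 higher and 2 lower at an unadjusted p under 0.05. Cd207, the langerin gene of Langerhans cells, had 18.1, 30.5 and 28.4 FPKM in dermal papilla, against 6.25, 6.36 and 0.844 FPKM in dermal stem cells (log2 fold change 2.50 ± 0.55 (SE), adjusted p = 0.0452). Ptprc, the pan-leukocyte gene, had 6.26, 5.05 and 2.596 FPKM in dermal papilla, against 16.7, 6.62 and 0.214 FPKM in dermal stem cells (adjusted p = 0.992), and Pecam1, of endothelial cells, had 27.5, 46.5 and 6.68 FPKM in dermal papilla, against 28.8, 19.8 and 6.28 FPKM in dermal stem cells (adjusted p = 0.779). Both overlapped, with wide spread within each population.

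Cell cycle genes gave 0 calls in either direction by limma among 35 tested, 0 higher and 4 lower with the replicate block, and 0 higher and 12 lower at an unadjusted p under 0.05, which 18.2% of all genes reached as lower. Mki67, a proliferation marker, had 3.17, 6.74 and 3.94 FPKM in dermal papilla, against 3.55, 9.84 and 8.57 FPKM in dermal stem cells (adjusted p = 0.464). Of 13 cell cycle inhibitors 1 fell, against 0 higher and 2 lower with the block. That gene, Cdkn1c, had 8.11, 19.95 and 22.2 FPKM in dermal papilla, against 80.2, 85.99 and 57.96 FPKM in dermal stem cells (log2 fold change -2.19 ± 0.38 (SE), adjusted p = 0.0229). Genes of dissociation and stress response gave 0 higher and 1 lower (Klf2) among 30 tested, and 1 higher and 4 lower with the block. Of 19 glycolysis enzymes, 6 adipocyte markers and 9 melanocyte niche ligands, 0 passed by limma without the block and 1 niche ligand rose with it; unadjusted p was under 0.05 for 1 higher and 1 lower among the glycolysis enzymes and for 0 genes of the other lists.

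Some abundant genes had close levels. Dusp1, a phosphatase of the stress response, had 421, 377 and 316 FPKM in dermal papilla, against 361, 409 and 328 FPKM in dermal stem cells (log2 fold change 0.02 ± 0.23 (SE), adjusted p = 0.973). Htra1, a secreted protease, had 119.9, 108 and 98.7 FPKM in dermal papilla, against 98.8, 118 and 113 FPKM in dermal stem cells (log2 fold change -0.02 ± 0.19 (SE), adjusted p = 0.961). Ogn, a small proteoglycan, had 249, 177 and 305 FPKM in dermal papilla, against 216, 232 and 297 FPKM in dermal stem cells (log2 fold change -0.05 ± 0.27 (SE), adjusted p = 0.933). Their populations overlapped, and the SE of each fold allows small differences in either direction. Vim, a filament protein of mesenchyme, had 838, 779 and 1016 FPKM in dermal papilla, against 1573, 1445 and 2095 FPKM in dermal stem cells (log2 fold change -0.95, adjusted p = 0.114; 0.0477 with the replicate block).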

How the data were processed

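RNA was captured with a poly(A) kit from sorted cells and sequenced with SOLiD libraries, per the labels' protocols. The authors deposited 1 table of FPKM values per gene and library. TopHat2 2.0.13, SAMtools, Cufflinks 2.2.1 and the mm10 build are named, without roles, in the submitters' processing notes; the annotation is not given in the sources used here. Exact duplicate rows were dropped (24692 rows, 24192 left). Read depth is unknown. FPKM summed to 206055 to 262695 per library. Steps between low values put depth relative to stem cell replicate 2 at 0.833, 0.667 and 0.625 in dermal papilla. Dermal stem cells were at 1.41, 1 and 0.909. Gene rows at 0 made up 35.6%, 37.8% and 40.7% in dermal papilla, against 29%, 31.8% and 34.4% in dermal stem cells. The part of depth in the excess of lower genes and in the papilla zeros was not tested.

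limma 3.58.1 in R 4.3.3 was run on log2(FPKM + 1) with a mean-variance trend, 2-sided, on the 6 libraries without a block, and was tested on simulated data. Pseudocount, filter, scaling, library and block alternatives are in the closing section. The replicate numbers may pair libraries, and the block was fitted as an alternative for that reason. Calls and p-values are from the fit without the block unless another setting is named. Deviations from the group means correlated at 0.324, 0.269 and 0.404 for replicates 1, 2 and 4, all over 0.1. Papilla replicate 1 with stem cell replicate 2, an unmatched pair, was also over 0.1, at 0.141. The other unmatched pairs were at 0.0127 or below. Deviations within a group sum to 0 for each gene, so positive matched values push unmatched ones down. The low unmatched values are therefore not separate support for a pairing. The labels do not state a pairing. Values with the block are given where they change the call of a named gene or a count by list.

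Comparison, gene lists (50, with 969 of 1241 distinct genes tested) and settings were chosen with earlier results of these data known, so counts by list are descriptions. Genes were named as the 10 largest changes in each direction (populations not overlapping, mean of 5 FPKM or more in the higher one), as many as 4 passing members per list, fixed checks, genes listed at 0 in 1 population, and 5 close levels; other list members were named after their values were seen. Some genes that meet these rules are not reported here. Gene positions are 1-based from RefSeq GRCm38.p6 by Entrez identifier, found for 11343 of the tested genes.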

Additional observations from a re-analysis of the deposited data

How the results depend on the processing

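Of 160 higher and 503 lower genes, 157 and 227 also passed under both other scalings, 160 and 495 under the replicate block, and 13 and 81 under all 16 alternatives. Higher genes numbered 53 with no filter, 269 after quantile normalization, 303 in a fit of all 12 libraries and 377 with the replicate block for the pairing; leaving out 1 library gave 19 to 438. Lower genes numbered 228 with no filter, 240 after median-of-ratios scaling, 276 after quantile normalization, 836 with 12 libraries and 820 with the block; leaving out 1 library gave 95 to 713. At least 4-fold higher genes (58) numbered 13 with a pseudocount of 5, 21 with no filter, 106 after quantile normalization and 89 with the block, and 16 to 158 with 1 library left out. At least 4-fold lower genes (151) numbered 54, 100 and 99 under the first 3 of these settings and 97 after median-of-ratios scaling, and 76 to 166 with 1 library left out. Without dermal papilla replicates 1 and 2, an alternative chosen after the data were seen, 100 and 309 genes were at least 4-fold higher and lower, and Sox2 passed with a log2 fold change of 1.93. In that fit the lone papilla library is assumed to vary like the stem cell libraries. The cause of these moves was not tested. Of 114 named genes that passed, 35 passed under all 16 alternatives, none changed direction under any, and the block lost none. Low values limit most the genes near 1 FPKM, where depth is unknown.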
